A study of Mus musculus with 6 samples.

Results

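The chemokine receptors CCR4 and CCR8 and 3 of their ligands, CCL1, CCL17 and CCL22, form a short signalling axis that guides T cells. Its 5 genes, Ccl1, Ccl17, Ccl22, Ccr4 and Ccr8, were taken by symbol from the 32285 genes of the deposited matrices, and all 5 were found. CCL17 and CCL22 are made mainly by dendritic cells and macrophages and bind CCR4, which T helper 2 cells and regulatory T cells carry. CCL1 is made by activated T cells and binds CCR8, a receptor of T helper 2 cells and of the regulatory T cells found in tumours. In mice CCL8 is a further ligand of CCR8. Signals through these receptors draw regulatory T cells into tissue, and mature regulatory dendritic cells, which carry a programme of migration and T cell restraint, are a known source of CCL22 in tumours.

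Immune cells had been sorted from mouse colon tumours as viable (7-AAD-negative), EpCAM-negative and CD45-positive cells and profiled by 10x Genomics 3' v3 single-cell sequencing, in which each captured RNA molecule is counted by its unique molecular identifier (UMI). There were 6 libraries: SOX17KO and Control without a stated time (the untimed pair), SOX17KO and Control at 1 week, and SOX17KO and Control at 2 weeks. SOX17KO names the loss of the transcription factor SOX17, and how the allele was made, in which cells and on which background, and the age of the mice, are not given in the sources used here. Tumours of 5 mice were pooled per condition according to the series description. Each genotype and collection was thus 1 library, so a difference within a collection has no replicate check. The 3 pairs served as replicates where a test was made. Intervals in square brackets are 95% and cover counting error only.

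The matrices held 34607 barcodes and 210130933 UMIs, and 32201 cells passed the filters. The libraries held 2937 to 6871 such cells each, whose median depth ran from 3004 to 5896 UMIs. A UMI of Ptprc, which encodes CD45, was found in 86.7% to 93.7% of kept cells. Sox17 itself had 3 to 20 UMIs per library (4, 20 and 3 in SOX17KO, 7, 11 and 10 in Control, in the order untimed, 1 week, 2 weeks), which checks little in cells sorted away from the epithelium. In all, 127 barcodes occurred in more than 1 library, 29 of them within the same collection. Cells were placed in classes by marker UMIs that included none of the 5 genes. T cells needed at least 2 CD3 UMIs and at most 1 UMI each of the B cell and the myeloid marker sets, which left out many CD3-positive cells at 1 week: there 4.51% of SOX17KO and 6.21% of Control cells had 2 CD3 UMIs, while 2.07% of SOX17KO and 1.87% of Control cells passed the T gate. The libraries differed widely in their classes: T cells numbered 4015, 142 and 724 in SOX17KO and 3696, 98 and 2049 in Control, and monocytes and macrophages 116, 3371 and 763 in SOX17KO and 192, 2735 and 930 in Control (untimed, 1 week, 2 weeks). Regulatory T cells were 56 cells, or 1.39% of T cells, in the untimed SOX17KO library, against 746 cells, or 20.2%, in the untimed Control library. They were 21.1% and 25.5% of T cells at 1 week and 7.32% and 5.47% at 2 weeks, SOX17KO before Control. Levels are given as UMIs of the gene per 1000000 UMIs of the class (CPM); a level over all cells of a library cannot tell fewer cells of a type from less RNA per cell.

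The genes of the CCR4 ligands lie close together on chromosome 8 (mm10, GENCODE annotation), Ccl22 at chr8:94745590-94751699 and Ccl17 at chr8:94810453-94812036, both on the plus strand, with Cx3cl1 as the only protein-coding gene between them. Ccl1 (chr11:82176657-82305690, minus strand) lies next to Ccl8, and the receptors lie on chromosome 9, Ccr4 at chr9:114490316-114504916 on the minus strand and Ccr8 at chr9:120092114-120094906 on the plus strand. No annotated gene overlapped any of the 5. Because both CCR4 ligands were higher in mature regulatory than in other conventional dendritic cells, the RefSeq (GRCm38.p6) sequence before each start is shown, cut so that it lies before the start in both annotations and in no annotated gene. Capitals mark matches, on either strand, to the STAT6-type palindrome (TTC, any 4 bases, GAA) or to the kB-type pattern (GGG, any 5 bases, CC).
Ccl17, chr8:94810203-94810452, plus strand: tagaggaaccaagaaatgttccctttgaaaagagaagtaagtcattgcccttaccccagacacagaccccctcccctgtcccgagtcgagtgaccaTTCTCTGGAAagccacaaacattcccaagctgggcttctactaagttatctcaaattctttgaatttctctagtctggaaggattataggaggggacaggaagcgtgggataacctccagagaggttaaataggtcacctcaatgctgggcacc
Ccl22, chr8:94745434-94745589, plus strand: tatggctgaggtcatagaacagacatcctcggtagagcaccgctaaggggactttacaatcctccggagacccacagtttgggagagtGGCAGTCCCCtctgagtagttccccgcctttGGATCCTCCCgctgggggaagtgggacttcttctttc
The Ccl17 window held the STAT6-type match at bases -154 to -145 from the RefSeq start and no kB-type match. The Ccl22 window held 2 kB-type matches, at -162 to -153 and at -131 to -122, and no STAT6-type match. Of 32851 RefSeq promoters, 5.85% held the STAT6-type palindrome and 45.8% the kB-type pattern in the 250 bases before the start. TATAAA (12.4% of promoters) and TGANTCA (6.75%), an AP-1 site, were also searched for and matched neither window. The Ccl22 window has 156 bases and leaves out the 94 bases nearest the RefSeq start. The promoter shares are thus not a like rate for that window. A match describes letters and not a bound site.

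Ccl22, which encodes a high-affinity CCR4 ligand, had a high level in mature regulatory dendritic cells, gated on Fscn1, Ccr7 and MHC class II. T-gated cells, described below, held 51.7% and 53.1% of its UMIs in the untimed SOX17KO and Control libraries. Mature regulatory dendritic cells held 23.8% and 29% there. They held 60.6% and 53.5% at 1 week and 53.5% and 56.8% at 2 weeks, SOX17KO before Control. In these cells its level was 1816, 2298 and 999 CPM in SOX17KO, against 596, 1204 and 946 CPM in Control (untimed, 1 week, 2 weeks; 18 to 59 cells per library). In the other conventional dendritic cells it was 115, 41.5 and 60.5 CPM in SOX17KO, against 15.2, 40.5 and 37 CPM in Control. The lowest level of the mature class, 596 CPM, was above the highest of the other class, so the classes did not overlap. A UMI of Ccl22 was found in 61.1%, 89.8% and 64% of mature regulatory dendritic cells in SOX17KO and in 58.9%, 78% and 70% in Control. B cells gave the background: a Ccl22 UMI was seen in 1 of 235 B cells of the untimed Control library, or 0.426%, and in none of the B cells of the other 5 libraries, at a median of 2621 to 4237 UMIs per cell.

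Both CCR4 ligands rose in mature regulatory dendritic cells relative to other conventional dendritic cells in the 5 libraries with at least 20 cells of each class. On the log2 scale the difference was 5.15 ± 0.23 (SE) for Ccl22, with an edgeR adjusted p of 2.02e-08, and 1.49 ± 0.19 for Ccl17, with an edgeR adjusted p of 5.31e-05. These classes differ broadly: 45.9% of 8827 genes were called in either direction and 20.3% as higher, so that a call alone says little. Ccl17, which encodes the other CCR4 ligand, reached 608, 1584 and 228 CPM in mature cells of SOX17KO, against 584, 905 and 267 CPM in Control. In the other conventional dendritic cells Ccl17 had 117, 511 and 120 CPM in SOX17KO, against 156, 609 and 104 CPM in Control. In both classes and both genotypes its level was highest at 1 week.

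Among the other conventional dendritic cells, Ccl17 was found in type 2 cells (gated on Cd209a) and in type 1 cells (gated on Xcr1 and Clec9a). In type 2 cells it had 34.7, 587 and 182 CPM in SOX17KO, against 238, 784 and 176 CPM in Control. In type 1 cells it had 173, 425 and 75 CPM in SOX17KO, against 74.5, 360 and 19.9 CPM in Control. Type 1 levels rested on few cells, since the 5 highest cells held 74.4% to 100% of the type 1 UMIs in each library. Across all 6 libraries, between 83.3% and 100% of mature regulatory dendritic cells with a Ccl17 UMI also had a Ccl22 UMI, whereas 31.2% to 63.6% of those with Ccl22 had Ccl17. In the other conventional dendritic cells 18.9% to 61.5% of Ccl17-positive cells had Ccl22.

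**Figure D1:**
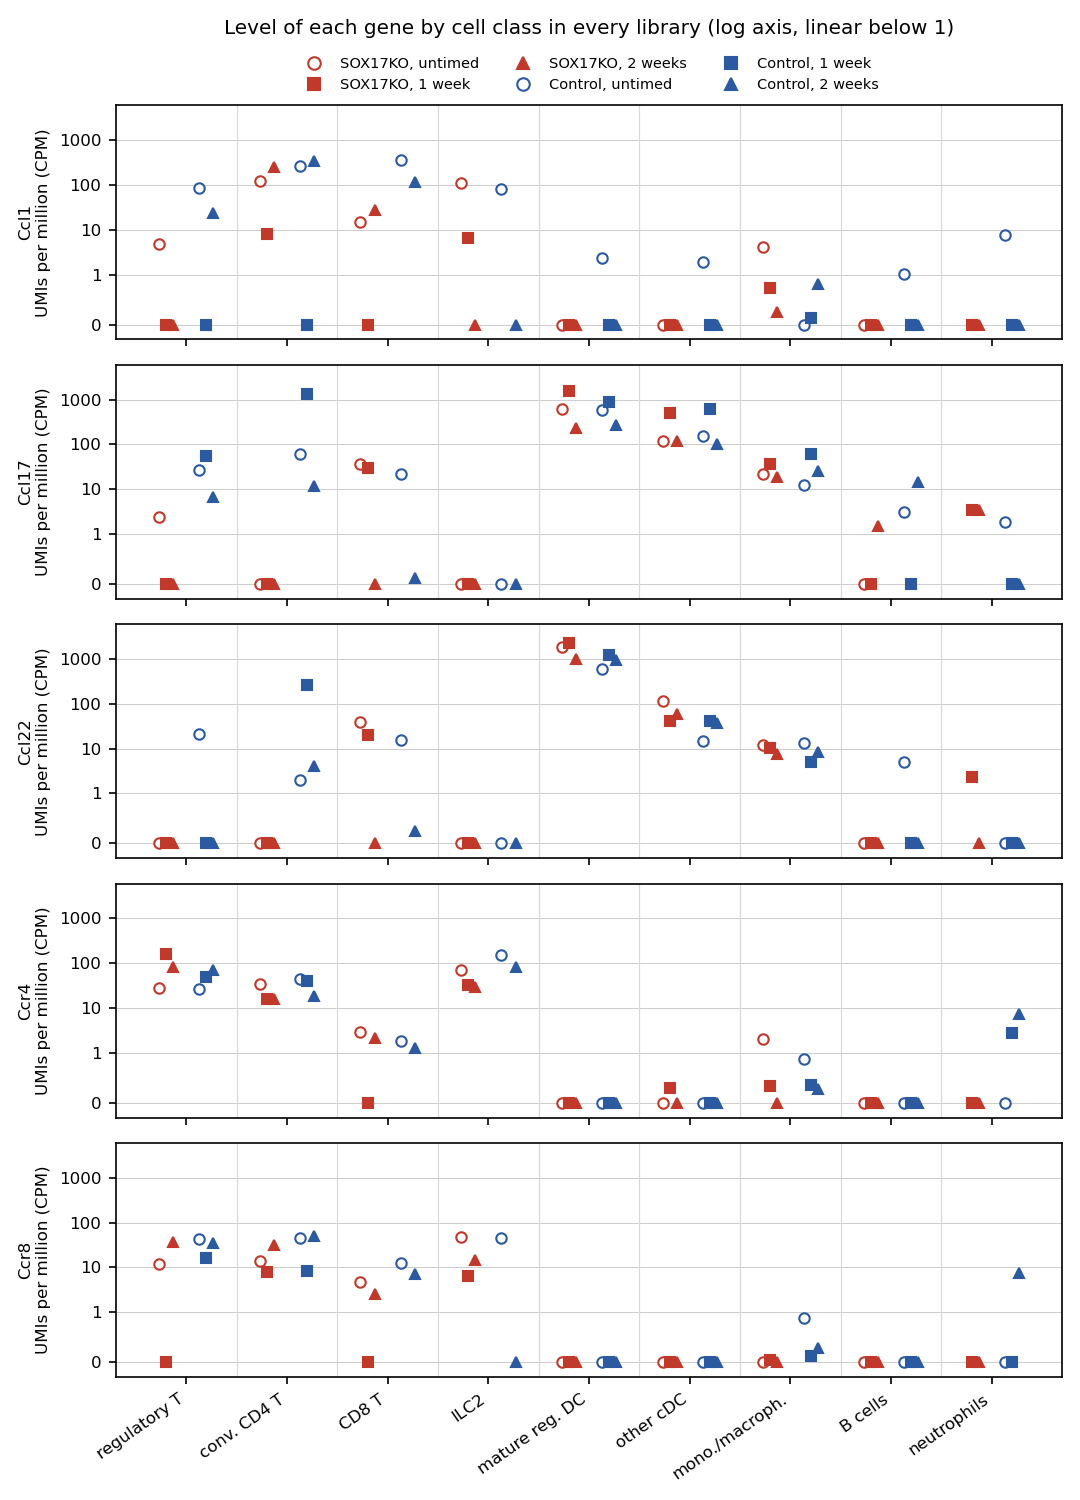
Level of each of the 5 genes (CPM, log axis that is linear below 1) in 9 cell classes, 1 point per library with at least 15 cells of the class, SOX17KO in red left of Control in blue, with the collection given by the symbol. Ccl22 stands at 596 to 2298 in mature regulatory dendritic cells and Ccl17 at 228 to 1584, while B cells held no UMI of Ccr4 or Ccr8, dendritic cells 1 of Ccr4 and none of Ccr8, and the neutrophils of the 2-week Control library 1 of each, which is 7.36 CPM.

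Whether loss of SOX17 went with a change of these ligands was tested over the 3 pairs with collection as a term. Ccl22 in dendritic cells as a whole had 491, 335 and 183 CPM in SOX17KO, against 114, 237 and 165 CPM in Control (untimed, 1 week, 2 weeks). Every SOX17KO library was thus above the Control library of its collection, by 4.29-fold [3.62, 5.08], 1.41-fold [1.29, 1.54] and 1.11-fold [0.952, 1.3], and the last interval includes 1. Over the pairs Ccl22 had a log2 fold change of 0.87 ± 0.35 (SE), which did not pass (edgeR unadjusted p = 0.0431, adjusted p = 0.691). In that comparison 0% of 10313 genes were called, 735 had an unadjusted p under 0.05, and DESeq2 called 4, none of them a member. Without the untimed pair the log2 fold change of Ccl22 was 0.3. The untimed SOX17KO value rests on 75 dendritic cells, 18 of them mature, against 284 and 56 in the Control library.

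Within mature regulatory dendritic cells the Ccl22 ratio of SOX17KO to Control was 3.05 [2.54, 3.66], 1.91 [1.74, 2.1] and 1.06 [0.88, 1.26] for the untimed, 1-week and 2-week pairs. Mature cells were 18 of 75 dendritic cells in the untimed SOX17KO library and 56 of 284 in the untimed Control library. After each cell was thinned to 1000 UMIs, a Ccl22 UMI was found in 38.9% [17.3, 64.3], 59.2% [44.2, 73] and 24% [9.36, 45.1] of mature cells in SOX17KO, against 25.9% [15, 39.7], 42.4% [29.6, 55.9] and 50% [35.5, 64.5] in Control. At equal depth the share in SOX17KO minus that in Control was 13, 16.8 and -26 percentage points. At 2 weeks the share thus ran the other way from the CPM. The separate intervals of each pair overlapped, which is no test of a difference, and no order common to the pairs is read from the shares. Ccl17 in dendritic cells had 226, 650 and 134 CPM in SOX17KO, against 229, 659 and 127 CPM in Control. Its ratios of 0.985 [0.805, 1.2], 0.986 [0.931, 1.04] and 1.05 [0.877, 1.26] all had intervals that include 1, and its log2 fold change was -0.01 ± 0.13 (edgeR adjusted p = 1). The 1-week ratio joins opposite directions: Ccl17 had 1.75 [1.57, 1.96] in mature cells and 0.839 [0.784, 0.897] in the other conventional dendritic cells. In the untimed and 2-week pairs the interval of the Ccl17 ratio included 1 in both classes.

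In monocytes and macrophages both CCR4 ligands were low. Ccl17 had 22.3, 35.8 and 18.6 CPM in SOX17KO, against 12.4, 62.5 and 26 CPM in Control, and Ccl22 had 12.2, 10.2 and 7.54 CPM in SOX17KO, against 13.3, 5.16 and 8.49 CPM in Control. Dendritic cells exceeded these cells in every library. The log2 fold change was 3.25 ± 0.25 for Ccl17 (edgeR adjusted p = 5.55e-06, 6 libraries) and 4.69 ± 0.26 for Ccl22 (edgeR adjusted p = 1.2e-06), in a contrast that called 46.5% of 11603 genes in either direction and 21.8% as higher. At 1 week, where these cells were most numerous, a Ccl17 UMI was found in 34 of 3371 SOX17KO cells, or 1.01% [0.699, 1.41], and in 41 of 2735 Control cells, or 1.5% [1.08, 2.03]. The 5 highest of those cells held 85.7% of the Ccl17 UMIs in SOX17KO and 56.9% in Control, with up to 309 and 205 UMIs in 1 cell. Most Ccl17 in the gate was thus in a small number of cells.

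Myeloid cells with under 2 UMIs of Ly6c2 were taken as macrophages and the rest as monocytes, and in 5 of the 6 libraries Ccl17 was higher in macrophages. It had 27, 70.2 and 33.4 CPM in macrophages of SOX17KO and 0, 121 and 52.1 CPM in those of Control, and at most 19.4 CPM in the monocytes of any library. Macrophages exceeded monocytes by 4.72 ± 0.51 on the log2 scale for Ccl17 (edgeR adjusted p = 0.000204) and 3.19 ± 0.49 for Ccl22 (edgeR adjusted p = 0.00138), over 5 libraries. This comparison, added after the levels were seen, called 15.3% of 9729 genes in either direction, 7.9% as higher and 7.43% as lower. Between genotypes, Ccl17 in monocytes and macrophages had ratios of 1.8 [0.739, 4.27], 0.573 [0.523, 0.629] and 0.714 [0.52, 0.978]. Its log2 fold change was -0.49 ± 0.26 and did not pass (edgeR adjusted p = 0.952), and it was -0.1 without the 1-week pair. Without the untimed pair, in which 1 cell of each library held all of its Ccl17, the log2 fold change was -0.71 ± 0.15 and passed (edgeR adjusted p = 0.0149). That fit called 126 genes. Ccl22 in these cells had a log2 fold change of 0.29 ± 0.37 (edgeR adjusted p = 0.969), and of -0.26 without the 1-week pair. In this class 0% of 10797 genes were called by edgeR, 209 had an unadjusted p under 0.05, and DESeq2 called 1, which was no member.

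**Figure D2:**
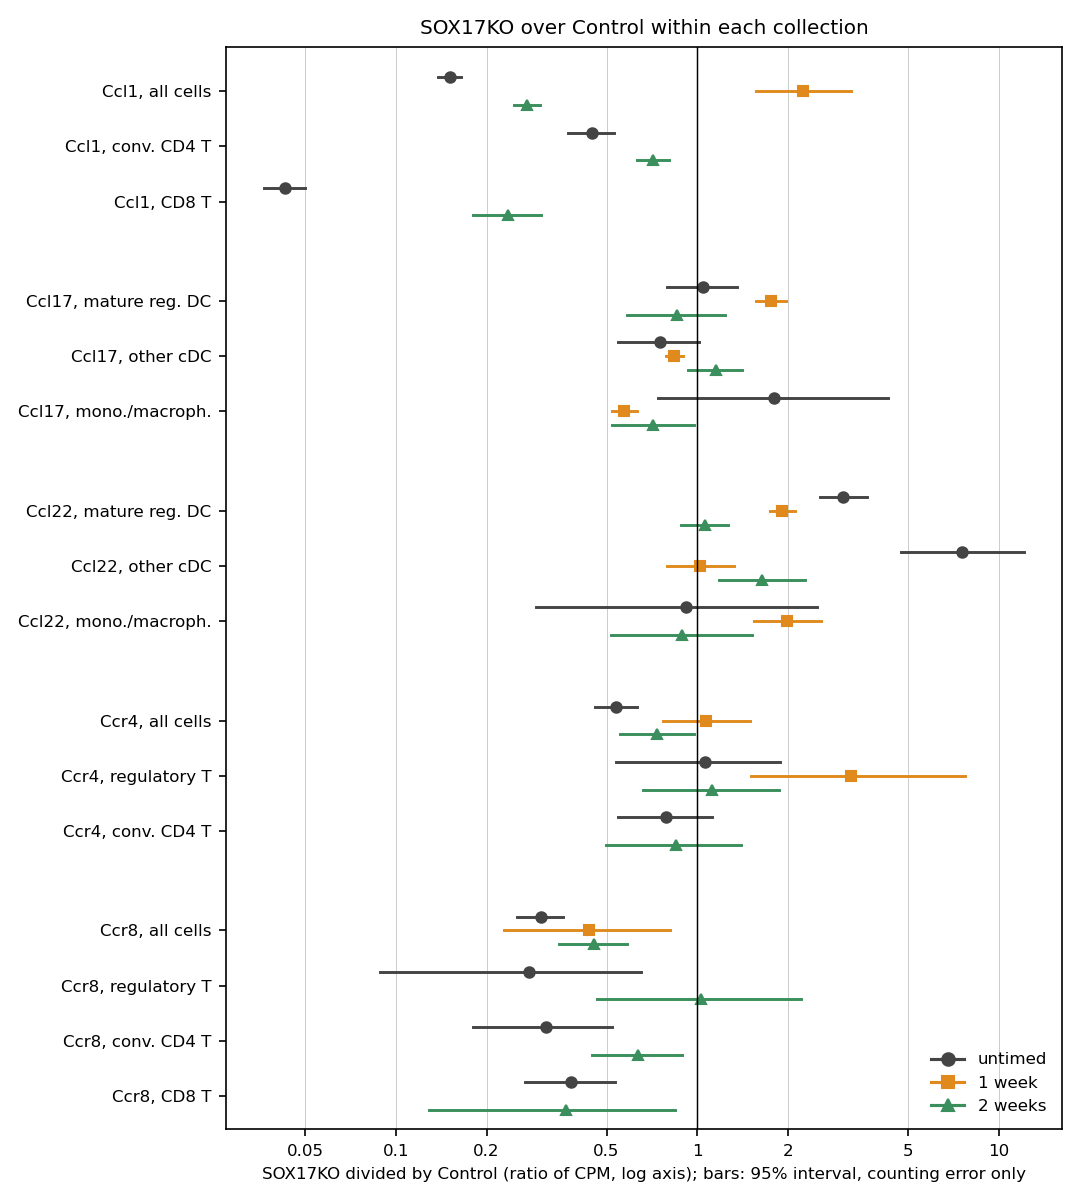
Level in SOX17KO divided by level in Control (ratio of CPM, log axis) within the untimed, 1-week and 2-week pairs, with 95% intervals that cover counting error only, for classes with at least 15 cells in both libraries and at least 20 UMIs of the gene in the pair. All intervals of Ccr8 over all cells lie below 1, with ratios of 0.302, 0.437 and 0.453, and Ccl1 over all cells lies below 1 in the untimed and 2-week pairs and above 1 at 1 week.

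UMIs of Ccl17 and Ccl22 were also counted in cells of the T gate, and these sat in few cells rich in MHC class II transcripts. In the untimed SOX17KO library T-gated cells held 538 of 913 Ccl17 and 480 of 928 Ccl22 UMIs. In the untimed Control library they held 733 of 1881 and 472 of 889. Over all libraries 55 T-gated cells had at least 5 Ccl17 UMIs and held 91.9% of the Ccl17 UMIs of that gate. Of these 55 cells, 54 had at least 5 MHC class II UMIs, with a median of 172, against a median of 0 in T-gated cells without Ccl17. Their median depth was 17942 UMIs, against 4030, and 14 of them had a UMI of Fscn1. For Ccl22 the count was 44 cells with 86.9% of the UMIs, of which 41 had at least 5 MHC class II UMIs and 27 had Fscn1. When T cells with more than 4 MHC class II UMIs were left out, Ccl17 in T cells was 0.684, 0 and 0 CPM in SOX17KO, against 0.83, 1.89 and 0.736 CPM in Control. Ccl22 in T cells was then 2.81, 0 and 0 CPM in SOX17KO, against 1.18, 0 and 0.0736 CPM in Control. In untimed CD8 T cells 41 Ccl22 UMIs remained in SOX17KO, or 4.11 CPM, and 14 in Control, or 1.92 CPM. A single SOX17KO cell held 31 of those 41 UMIs, and a single Control cell held 8 of the 14. No order of that pair is therefore read for Ccl22. Most UMIs behind the fold changes of Ccl17 and Ccl22 within T cell classes lay in the cells so removed. Those fold changes are not read as levels in T cells, and the origin of the removed cells was not tested.

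**Figure D3:**
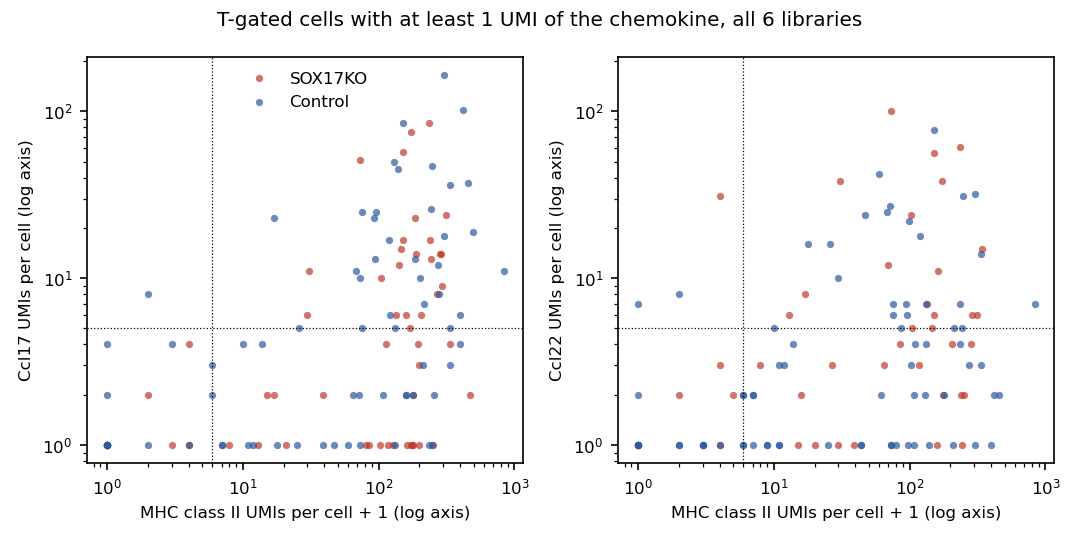
Ccl17 (left) and Ccl22 (right) UMIs per cell against MHC class II UMIs per cell plus 1, both on log axes, for every T-gated cell with at least 1 UMI of the chemokine, SOX17KO in red and Control in blue; dotted lines mark 5 UMIs on each measure. Of the 55 cells with at least 5 Ccl17 UMIs 54 lie right of the vertical line, and of the 44 cells with at least 5 Ccl22 UMIs 41 do.

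Ccl1, which encodes the classical CCR8 ligand, was found mainly in T cells at the untimed and 2-week collections, and its level in CD8 T cells was lower in SOX17KO in both of those pairs. There it had 15.2 CPM [13, 17.6] in the untimed SOX17KO library, against 354 CPM [341, 367] in the untimed Control library, and 27.9 CPM [21.5, 35.6] in SOX17KO, against 118 CPM [111, 126] in Control at 2 weeks. The 1-week libraries held 24 and 9 CD8 T cells, with no Ccl1 UMI in either. The ratio was 0.0429 [0.0366, 0.05] in the untimed pair and 0.235 [0.18, 0.303] at 2 weeks. A Ccl1 UMI was found in 2.44% [1.9, 3.08] of the untimed SOX17KO CD8 T cells, against 15.7% [13.6, 17.9] of the Control cells, and at 2 weeks in 4.3% [2.24, 7.39] in SOX17KO and 10.7% [8.85, 12.7] in Control. In B cells, the background, a Ccl1 UMI was seen in 1 of 235 untimed Control cells, 0.426%, and in no cell of the other 5 libraries. The untimed CD8 T cells of SOX17KO were shallower, with a median of 3253 UMIs, against 5421 in Control. With every cell thinned to 1000 UMIs the shares were 0.903% [0.585, 1.33] in SOX17KO and 7.12% [5.7, 8.78] in Control (untimed), and at 2 weeks 1.44% [0.393, 3.64] in SOX17KO and 4.61% [3.41, 6.08] in Control. The differences were -6.22 and -3.17 percentage points, lower in SOX17KO in both pairs. The untimed intervals did not overlap and those at 2 weeks did, though overlap of separate intervals is no test of a difference. No Ccl1 UMI was found in thinned B cells of any library.

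Over these 2 pairs the log2 fold change of Ccl1 in CD8 T cells was -3.35 ± 0.65 (SE), lower in SOX17KO in both, and it did not pass (edgeR unadjusted p = 0.00534, adjusted p = 0.669). DESeq2 gave -3.31 ± 0.5 with an adjusted p of 3.57e-07. In that class edgeR called 0% of 12715 genes, with 888 at an unadjusted p under 0.05, and DESeq2 called 15. The 5 highest cells held 30.6% and 31.7% of the Ccl1 UMIs in the untimed SOX17KO and Control libraries, and 84.4% in SOX17KO and 33.9% in Control at 2 weeks. In conventional CD4 T cells Ccl1 had 121 and 250 CPM in SOX17KO, against 271 and 351 CPM in Control (untimed, 2 weeks), ratios of 0.446 [0.372, 0.531] and 0.713 [0.631, 0.803]. The log2 fold change was -0.76 ± 0.22 and did not pass (edgeR adjusted p = 0.461). There edgeR called 2 of 10104 genes, 0.0198%, with 870 at an unadjusted p under 0.05, and DESeq2 called 43, none of them a member.

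Among CD4 T cells, those with a UMI of Il4, Il5 or Il13, the cytokines of type 2 help, held more Ccl1 than the rest. In these cells Ccl1 had 775 and 321 CPM in SOX17KO, against 502 and 1301 CPM in Control (untimed, 2 weeks), on 15 to 33 cells per library. In the other conventional CD4 T cells it had 68.7 and 241 CPM in SOX17KO, against 263 and 225 CPM in Control. The class was higher in all 4 libraries, and over the 3 with at least 20 cells of each class the log2 fold change was 2.21 ± 0.33 (edgeR adjusted p = 0.000587). This contrast called 1.7% of 8178 genes in either direction, 1.01% as higher and 0.685% as lower. DESeq2 did not call Ccl1 here, at 2.28 ± 0.78. In the 2-week Control library 312 of the 419 Ccl1 UMIs of the type 2 cells were in 1 cell.

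Regulatory T cells held less Ccl1 than conventional CD4 T cells in the untimed and 2-week libraries. Their level there was 4.77 and 0 CPM in SOX17KO and 85.5 and 24 CPM in Control, against 121 and 250 CPM in SOX17KO and 271 and 351 CPM in Control for conventional CD4 T cells (untimed, 2 weeks). The 1-week libraries show no difference, since their 30 and 25 regulatory T cells held no Ccl1 UMI and their 16 and 15 conventional CD4 T cells held 1 and 0. Against conventional CD4 T cells the log2 fold change was -3.12 ± 0.53 and passed (edgeR adjusted p = 0.0332), in a contrast over 4 libraries that called 1.76% of 10018 genes in either direction and 1.18% as lower. The call was lost without the untimed SOX17KO library (-3), without the 2-week Control library (-2.83) and without the 2-week SOX17KO library (-2.74). Without the untimed Control library the value was -4.54 and passed, and DESeq2 kept the call. Against CD8 T cells the log2 fold change was -2.29 ± 0.27 (edgeR adjusted p = 0.00195), a comparison added after the levels were seen, in which 6.11% of 10392 genes were called and 2.43% as lower. A Ccl1 UMI was found in 1 of 56 regulatory T cells, 1.79% [0.0452, 9.55], of the untimed SOX17KO library, against 96 of 746, 12.9% [10.5, 15.5], of the untimed Control library.

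Over all cells Ccl1 had 20.4, 2.85 and 28.7 CPM in SOX17KO, against 135, 1.27 and 105 CPM in Control. The ratios of 0.151 [0.138, 0.165] and 0.273 [0.247, 0.3] in the untimed and 2-week pairs lay below 1, and that of 2.24 [1.57, 3.23] at 1 week above it. At 1 week 113 of the 132 UMIs in SOX17KO and 30 of the 43 in Control were in cells that passed no gate. Those were 6 cells in SOX17KO, of which 1 held 85 UMIs, and 5 cells in Control. Most of these UMIs lay in cells with at least 2 CD3 UMIs, 88 of 113 in 3 of the 6 SOX17KO cells and all 30 in the 5 Control cells, so they were not outside CD3-positive cells. The log2 fold change over all cells was -1.34 ± 0.78 (edgeR adjusted p = 0.743), and it was -0.7 without the untimed pair, -2.24 without the 1-week pair and -0.92 without the 2-week pair. For the CCR4 ligands over all cells it was -0.34 ± 0.12 for Ccl17 and 0.32 ± 0.18 for Ccl22 (edgeR adjusted p = 0.743 for each), with 0.08 for Ccl22 without the untimed pair. Cells gated as group 2 innate lymphoid cells also held Ccl1 in the untimed pair, at 112 CPM [78.9, 154] in SOX17KO and 81.1 CPM [44.3, 136] in Control, with overlapping intervals. That gate needed at least 1 Il7r UMI, at least 2 of Gata3 and Il1rl1 together, and at most 1 CD3 UMI. T cells with few CD3 UMIs could pass it, and how many did was not tested.

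**Figure D4:**
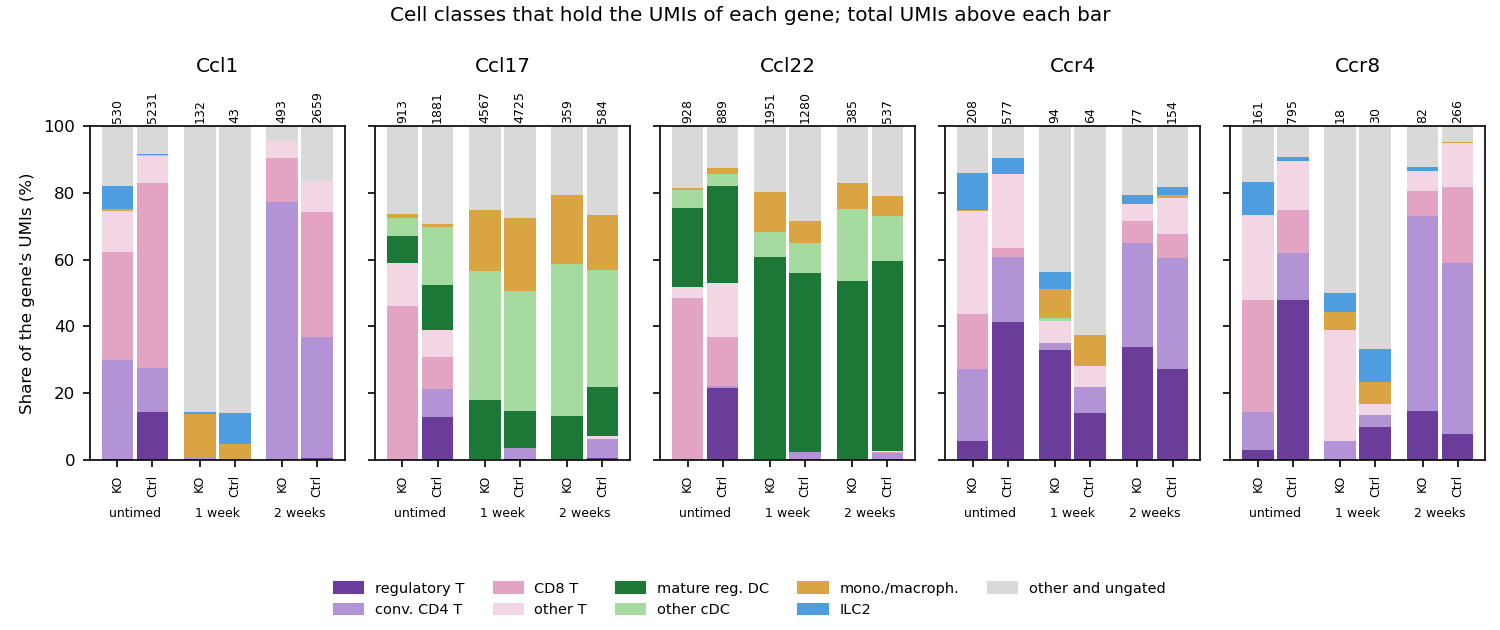
Share of each gene's UMIs (%) that lay in each cell class, in SOX17KO (KO) left of Control (Ctrl) within each collection, with the gene's total UMIs in the kept cells above each bar. Regulatory T cells held 3.11% of the Ccr8 UMIs in the untimed SOX17KO library and 47.9% in the untimed Control library. The shares of Ccl17 and Ccl22 in T classes of the untimed pair lie mostly in the MHC class II-rich cells described above.

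Ccr8, the receptor of CCL1, was lower in SOX17KO over all cells in each of the 3 pairs. It had 6.2, 0.388 and 4.77 CPM in SOX17KO, against 20.6, 0.888 and 10.5 CPM in Control (161, 18 and 82 UMIs in SOX17KO, 795, 30 and 266 in Control). The ratios were 0.302 [0.253, 0.358], 0.437 [0.229, 0.81] and 0.453 [0.349, 0.583], and no interval reached 1. The log2 fold change was -1.33 ± 0.21 (SE), which did not pass with edgeR (unadjusted p = 0.00169, adjusted p = 0.743) and passed with DESeq2 (-1.36 ± 0.31, adjusted p = 0.0115). Over all cells edgeR called 0% of 16567 genes, with 854 at an unadjusted p under 0.05, and DESeq2 called 37. The makeup of the libraries moved with it, and its part in the result was not tested. In the untimed pair regulatory T cells, which held 47.9% of the Control Ccr8 UMIs, were 0.925% of SOX17KO cells and 11.5% of Control cells, and at 2 weeks T cells as a whole were 724 of 2937 SOX17KO cells and 2049 of 4592 Control cells.

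Within regulatory T cells the interval of the Ccr8 ratio lay below 1 in the untimed pair and included 1 at 2 weeks, a difference between collections that was not tested. The gene had 11.9, 0 and 37.3 CPM in SOX17KO, against 43.3, 16.4 and 36 CPM in Control, from 5, 0 and 12 UMIs in SOX17KO and 381, 3 and 21 in Control. The ratio was 0.276 [0.089, 0.649] in the untimed pair and 1.03 [0.464, 2.2] at 2 weeks, and no fold is given at 1 week, where both counts were at or under 3 UMIs. A Ccr8 UMI was found in 8.93% [2.96, 19.6] of untimed SOX17KO regulatory T cells, against 31.4% [28, 34.8] in Control, at median depths of 5884 UMIs in SOX17KO and 7966 in Control. Thinned to 1000 UMIs the shares were 0 of 56 SOX17KO cells, with an upper bound of 6.38%, and 31 of 738 Control cells, or 4.2% [2.87, 5.91], a difference of -4.2 percentage points whose interval includes 0, so that it was not detectable at that depth. Thinned to 2000 UMIs the difference was -8.13 points [-10.3, -1.02], an interval that excludes 0. Over the 3 pairs its log2 fold change was -1.02 ± 0.57 (edgeR adjusted p = 0.751).

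In conventional CD4 T cells Ccr8 had 14 and 31.6 CPM in SOX17KO, against 44.4 and 49.6 CPM in Control (untimed, 2 weeks), ratios of 0.315 [0.18, 0.52] and 0.636 [0.448, 0.889]. In CD8 T cells it had 4.74 and 2.61 CPM in SOX17KO, against 12.5 and 7.14 CPM in Control, ratios of 0.381 [0.268, 0.534] and 0.366 [0.129, 0.844]. Both classes were lower in SOX17KO in both pairs, with log2 fold changes of -1.05 ± 0.34 (edgeR adjusted p = 0.489) and -1.37 ± 0.39 (edgeR adjusted p = 0.669) that did not pass. Over all T cells the ratio was 0.258 [0.211, 0.314] in the untimed pair, 1.14 [0.311, 4.55] at 1 week, on 7 SOX17KO and 5 Control UMIs, and 0.769 [0.583, 1] at 2 weeks. The log2 fold change was -0.92 ± 0.41 (edgeR adjusted p = 0.58), and it was -0.28 without the untimed pair. With CD4 T cells thinned to 1000 UMIs, the share with a Ccr8 UMI was 1.62% [0.596, 3.49] and 2.8% [1.04, 6] in SOX17KO, against 3.07% [1.76, 4.93] and 5.34% [3.34, 8.05] in Control, with overlapping intervals in each pair.

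Regulatory and conventional CD4 T cells, as split by a Foxp3 UMI, were not told apart by Ccr8. Regulatory cells without a counted Foxp3 UMI would fall in the conventional class, and how many did was not tested. The log2 fold change between them was -0.18 ± 0.2 (edgeR adjusted p = 0.838, 4 libraries), from levels of 11.9 and 37.3 CPM in SOX17KO and 43.3 and 36 CPM in Control for regulatory cells, against 14 and 31.6 CPM in SOX17KO and 44.4 and 49.6 CPM in Control for conventional cells (untimed, 2 weeks). Both CD4 classes exceeded CD8 T cells: Ccr8 was higher by 2.09 ± 0.38 on the log2 scale in regulatory T cells (edgeR adjusted p = 0.0148) and by 2.31 ± 0.31 in conventional CD4 T cells (edgeR adjusted p = 0.0115). These comparisons, added after the levels were seen, each called 6.11% of genes, 3.68% and 4.1% as higher. The first Ccr8 call was lost without the untimed Control library (2.4) or without the 2-week Control library (2.07), and the second without the 2-week Control library (2.14). Both were also lost without the library term (edgeR adjusted p = 0.0795 and 0.0664). Type 2 CD4 T cells had 10.5 and 37.4 CPM of Ccr8 in SOX17KO, against 42.7 and 93.1 CPM in Control, and their difference from the other conventional CD4 T cells did not pass (0.76 ± 0.39, edgeR adjusted p = 0.565; 0.23 without the 2-week Control library). No B cell of any library held a Ccr8 UMI, and among neutrophils 1 of 79 did, in the 2-week Control library. That 1 UMI is 7.36 CPM [0.186, 41], beside 7.14 CPM in the CD8 T cells of the same library.

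Ccr4, the receptor of CCL17 and CCL22, was found in regulatory T cells, conventional CD4 T cells and cells gated as group 2 innate lymphoid cells. In regulatory T cells it had 28.6, 159 and 80.7 CPM in SOX17KO, against 27.1, 49.2 and 72 CPM in Control (12, 31 and 26 UMIs in SOX17KO, 238, 9 and 42 in Control). The ratios were 1.06 [0.539, 1.88], 3.22 [1.5, 7.7] and 1.12 [0.66, 1.87], so that the interval excluded 1 at 1 week, on 30 and 25 cells, and in no other pair. Thinned to 1000 UMIs, a Ccr4 UMI was found at 1 week in 16.7% [5.64, 34.7] of these SOX17KO cells and 8% [0.984, 26] of the Control cells. Those intervals overlapped. In each 1-week library 37 further Ccr4 UMIs lay in cells with at least 2 CD3 UMIs that passed no gate. Over the 3 pairs the log2 fold change of Ccr4 in regulatory T cells was 0.55 ± 0.34 (edgeR adjusted p = 0.759), and 0.13 without the 1-week pair. In that class edgeR called 0% of 6288 genes, with 450 at an unadjusted p under 0.05, and DESeq2 called 0. In the untimed regulatory T cells the interval of the ratio thus included 1 for Ccr4 and lay below 1 for Ccr8. Over all cells Ccr4 had 8.01, 2.03 and 4.48 CPM in SOX17KO, against 14.9, 1.9 and 6.1 CPM in Control, and its log2 fold change was -0.39 ± 0.24 (edgeR adjusted p = 0.743). Regulatory T cells held 5.77% of the Ccr4 UMIs in the untimed SOX17KO library and 41.2% in the untimed Control library.

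In conventional CD4 T cells Ccr4 had 34.9, 15.8 and 15.8 CPM in SOX17KO, against 44.4, 41 and 18.6 CPM in Control, where the 1-week values rest on 16 and 15 cells. Each interval of the ratio included 1, and the log2 fold change over the untimed and 2-week pairs was -0.25 ± 0.29 (edgeR adjusted p = 0.873). CD8 T cells held little: 2.98 and 2.18 CPM in SOX17KO, against 1.83 and 1.31 CPM in Control (untimed, 2 weeks). Regulatory T cells exceeded them by 4.44 ± 0.43 on the log2 scale (edgeR adjusted p = 0.000585) and conventional CD4 T cells by 3.8 ± 0.29 (edgeR adjusted p = 0.00165), in comparisons added after the levels were seen that each called 6.11% of genes, 3.68% and 4.1% as higher and 2.43% and 2.01% as lower. Regulatory T cells were below conventional CD4 T cells in both untimed libraries and above them in the other 4, and the difference did not pass (0.66 ± 0.52, edgeR adjusted p = 0.702). It was 1.36 without the untimed Control library, 0.17 without the 2-week Control library and 0.21 without the 2-week SOX17KO library. In the group 2 innate lymphoid gate of the untimed pair Ccr4 had 69.6 CPM [44.1, 104] in SOX17KO, on 100 cells, against 151 CPM [98.4, 221] in Control, on 57 cells. The ratio was 0.462 [0.252, 0.843], from 23 and 26 UMIs. T cells with few CD3 UMIs could pass that gate too.

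Few cells held a UMI of both receptors. In the untimed SOX17KO library none of the 56 regulatory T cells held both, with 9 positive for Ccr4 and 5 for Ccr8. In the untimed Control library 62 of the 746 regulatory T cells held both, 114 Ccr4 only and 172 Ccr8 only, so 35.2% of Ccr4-positive cells also had Ccr8. At 2 weeks 1 of 53 SOX17KO and 3 of 112 Control regulatory T cells held both. Depth moved with these counts: the Ccr4-positive cells of the untimed Control library had a median of 11572 UMIs and the Ccr4-negative cells 6932. The share of Ccl1-positive cells that also held a Ccr8 UMI varied between libraries. Among conventional CD4 T cells it was 1 of 22 in SOX17KO, 4.55%, and 18 of 68 in Control, 26.5%, in the untimed pair, and 8 of 26 in SOX17KO, 30.8%, and 19 of 68 in Control, 27.9%, at 2 weeks. Among CD8 T cells it was 7.35% in SOX17KO and 13.4% in Control in the untimed pair, and at 2 weeks 0 of 12 in SOX17KO and 10.1% in Control. Ccl1-positive cells were deeper than Ccl1-negative cells in each of these 8 cases.

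Across 63 units, each a class in a library with at least 50 cells, the levels of the 5 genes fell in 2 groups by Spearman correlation of log2(CPM + 1). Ccr4 and Ccr8 had a rho of 0.859 and Ccl17 and Ccl22 one of 0.818. Ccl1 went with Ccr8 (0.667) and Ccr4 (0.565), and each T cell member had a rho below 0 with each CCR4 ligand (-0.11 to -0.279). Among 14806 genes, those most like Ccl22 were Zfp366 (0.864), which encodes the dendritic factor DC-SCRIPT, Tspan33 (0.819) and Ccl17. Those most like Ccl17 were Ccl22, Tspan33 (0.816) and Zfp366 (0.816). Those most like Ccr8 were Tnfrsf25 (0.872), a receptor for the cytokine TL1A, Ccr4 and Fam124b (0.834). Those most like Ccr4 were Ccr8, Ttc39c (0.857) and Tnfrsf25 (0.841). Those most like Ccl1 were Trbc2 (0.787), Il21 (0.779) and Cd3g (0.776), where Cd3g helped define the T gate. The units share libraries and cell types, so these are descriptions over units that are not independent.

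A list of 24 genes of the pathway and its cells, chosen with earlier results of these data known, was read beside the members. Between SOX17KO and Control none of its 20 to 24 tested genes passed in any of the 7 classes with edgeR, and its median log2 fold change ran from -0.09 to 0.11, beside -0.02 to 0.01 for all genes tested. Over all T cells edgeR called 0% of 14033 genes, with 1213 at an unadjusted p under 0.05, and DESeq2 called 93. Regulatory T cells against conventional CD4 T cells showed 6 of 22 list genes higher and 0 lower, where 0.579% of all genes tested were called higher and 1.18% lower, with a median of 0.41 beside -0.02 for all genes. Besides Foxp3, which defines the gate, these were Ikzf2 (2.67 ± 0.42, edgeR adjusted p = 0.0258), the transcription factor Helios, Il2ra (1.29 ± 0.24), Tnfrsf9 (1.2 ± 0.15), Il1rl1, the receptor for interleukin 33 (1.36 ± 0.18), and Ctla4 (0.95 ± 0.14). Mature regulatory against other conventional dendritic cells showed 12 of 18 higher and 2 lower, where 20.3% of all genes tested were called higher and 25.6% lower, with a median of 1.53 beside -0.11. One of the 12 was Ccr7, which defines the gate, so its call was fixed by the choice of cells. Others were Cd200 (5.87 ± 0.3, edgeR adjusted p = 3.51e-08) and Relb (2.93 ± 0.17), an NF-kB subunit.

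Ccl8, the further CCR8 ligand of mice, was spread over several classes. Monocytes and macrophages held 29 of its 245, 10824 of 17786 and 305 of 980 UMIs in SOX17KO, against 2 of 35, 17343 of 24619 and 55 of 756 in Control (untimed, 1 week, 2 weeks), so most of it lay in these cells at 1 week and not in the other collections. At 2 weeks T-gated cells held 157 UMIs in SOX17KO and 279 in Control, and fibroblasts held 336 in SOX17KO and 190 in Control. No level of Ccl8 was taken with the gate of at most 4 MHC class II UMIs. Its UMIs in the T gate are thus not read as a level in T cells. In monocytes and macrophages it had 58.9, 467 and 76.6 CPM in SOX17KO, against 1.77, 1052 and 15.1 CPM in Control. The SOX17KO library was higher in the untimed pair, by 33.2-fold [8.4, 287] on 29 and 2 UMIs, lower at 1 week, with a ratio of 0.443 [0.433, 0.454], and higher at 2 weeks, by 5.09-fold [3.81, 6.91]. Its log2 fold change over the pairs was 1.22 ± 1.03 (edgeR adjusted p = 0.952).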

How the data were processed

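Single-cell RNA of 6 libraries was analysed from the deposited matrices of raw UMI counts per gene and barcode, whole numbers without normalisation per the file headers and the values. Per the submitters' processing notes the authors used Cell Ranger 6.0.1 and mm10, whereas Cell Ranger 7.0.1 stands in the headers of the matrices. Whether introns were counted, and the annotation release, are not given in the sources used here, and UMIs from introns would raise counts of long genes. Total UMIs per library were 18281322 to 52150180.

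Barcodes with under 200 genes or over 10% mitochondrial UMIs were removed. Doublets were scored per library in the manner of Scrublet, and the top 0.8% per 1000 barcodes were removed. Cells took the first marker gate they passed: T cells needed 2 UMIs of Cd3d, Cd3e and Cd3g with at most 1 UMI each of the B cell and the myeloid marker sets, regulatory T cells Foxp3 as well, and cells that passed none stayed ungated. Counts were summed per class and library (at least 20 cells) and tested with edgeR 4.0.16 (quasi-likelihood, TMM, filterByExpr) in R 4.3.3, with Benjamini-Hochberg adjustment over all genes tested at 0.05. Collection was a term in genotype fits and library in class fits, since each pair or library is the replicate; DESeq2 1.42.0 was an alternative. Standard errors were derived from the fold change and F. Ratio intervals are exact conditional binomial and shares Clopper-Pearson (95%), for counting error only. Shares were also computed with cells thinned to 1000 UMIs; where a library held 0 UMIs, a floor of 3 counts per library was used. The fits were tested on simulated data.

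All 5 genes were counted across the gated classes, and not every level is printed here. The pathway list was reported by counts with up to 6 values, and the 3 genes most like each member were named. The members and lists were chosen with earlier results of these data known. Alternatives covered scaling, tool, filters, gates, doublets, mitochondrial limit, thinning, the term for collection or library, and each pair or library left out. Promoters came from RefSeq (GRCm38.p6) and positions from GENCODE release M21.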

Additional observations from a re-analysis of the deposited data

Results flagged for a closer look

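Over all cells the Ccl1 level in SOX17KO relative to Control ran in opposite directions between collections. The ratio was 0.151 in the untimed pair, 2.24 at 1 week and 0.273 at 2 weeks. The difference between collections was not tested, since each has 1 library per genotype. At 1 week 1 SOX17KO cell held 85 of the 132 Ccl1 UMIs.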

How the results depend on the processing

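Of 560 fold changes of the 5 genes under alternatives, 515 kept their direction and side of the threshold and 15 turned. Between genotypes 0 of the 5 genes passed in any class. Without a filter on low counts 2 passed in all T cells, 2 in the regulatory class, 3 in conventional CD4 T cells, 1 in CD8 T cells and 1 in dendritic cells. Those fits called 606, 122, 400, 373 and 387 genes in all, in that order. Ccl17 was among the members called in all T cells, the regulatory class and conventional CD4 T cells, where it is not read as a level in T cells. DESeq2 called 1 in CD8 T cells, where it called 15 genes in all, and 1 over all cells, where it called 37. A T gate of 3 CD3 UMIs gave 1 in conventional CD4 T cells, which was Ccl17, among 14 genes called. With a pair left out, 0 to 2 passed in T cells and 0 to 1 in monocytes and macrophages; the CD4 and CD8 fits had only 2 pairs. Between classes, the fit with no replicate block (no library term) called 0 genes of the axis for regulatory against conventional CD4 T cells (Ccl1 -2.73), 0 for type 2 CD4 T cells, and 1 each for mature dendritic cells, regulatory and conventional CD4 against CD8 T cells, and macrophages. For type 2 CD4 T cells DESeq2 called 0 and no filter 2, with 84 and 227 genes called in all. With a library left out, 0 to 1 passed for regulatory against conventional CD4 T cells and 1 to 3 for conventional CD4 against CD8 T cells. Thinning to 500 UMIs gave -3.93 percentage points for Ccl1 in untimed CD8 T cells, against -6.22, and thinning to 2000 gave -8.13 for Ccr8 in untimed regulatory T cells, against -4.2. Without the collection term, conventional CD4 T cells had 0 genes called between genotypes, against 2.

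These log2 fold changes turned, none of the turned values past the threshold. Ccr4 in T cells (0) was 0 with RLE scaling, -0.01 with 1 CD3 UMI, -0.02 with the gate of at most 4 MHC class II UMIs, and -0.31 to 0.54 with a pair left out (-0.19 without the 2-week pair). Ccl22 in T cells (-0.95) was 1.04 with that gate and -3.57 to 0.04 with a pair left out. Ccl17 in dendritic cells (-0.01) was 0.03 with doublets, 0.04 at a 5% mitochondrial limit and -0.04 to 0.03 with a pair left out. Ccl22 in monocytes and macrophages (0.29) was -0.26 (without the 1-week pair) to 0.56, and Ccr4 in type 2 CD4 T cells (0.16) -0.64 (without the 2-week Control library) to 0.49. Ccl17 against CD8 T cells was 0.33 with 2 Foxp3 UMIs and -1.36 to 0.47 with a library left out for regulatory cells (-0.47), and -0.34 to 2.38 for conventional CD4 cells (0.84). The cause was not tested.

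Genes called in all moved by over 1.5 times in many fits. Between genotypes the range was 0 to 606 in all T cells, 0 to 122 in the regulatory class, 0 to 400 in conventional CD4, 0 to 373 in CD8 T cells, 0 to 387 in dendritic cells, 0 to 126 in monocytes and macrophages and 0 to 37 over all cells. Between classes it was 20 to 882 for regulatory against conventional CD4 T cells (176 as reported), 1 to 227 for type 2 CD4 T cells (139), 3316 to 5607 for dendritic against myeloid cells (5391), 176 to 1226 and 135 to 1398 for regulatory and conventional CD4 against CD8 T cells (635 and 691), and 52 to 2082 for macrophages (1492). Few UMIs of Ccr8 in regulatory T cells (0 to 21 in 5 of 6 libraries) limit what depth can show there.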
